A study of Rattus norvegicus with 19 samples.

Results

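The genes described here serve fatty acid oxidation in peroxisomes or are known targets of the nuclear receptor PPAR alpha. They are Ehhadh, Ech1, Hsd17b4, Pex11a, Cat, Crat, Vnn1, Creb3l3 and Angptl4. Non-control probes of a rat 4x44K array were taken as theirs where the accession in the scanner files led to the gene, and this gave 10 probes of 41012, 2 for Pex11a and 1 for each of the other 8 genes. Livers came from 19 male Wistar rats, started on a diet at 8 weeks of age and kept on it for 4 months. In the high protein group (HP, 6 rats) 45% of dietary energy was carbohydrate, 10% fat and 45% protein, mostly casein. In the high fat group (HF, 6 rats) the shares were 20% carbohydrate, 60% fat and 20% protein, and in the Control group (7 rats) 70%, 10% and 20%. All rats were fed when killed in the early morning, and each array held the RNA of 1 rat in Cy5 against a pool of liver RNA in Cy3, so every level below is a log2 ratio of a rat to that pool. The diets differ in more than 1 nutrient: carbohydrate made room for protein in HP and for fat in HF.

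Peroxisomes shorten very long chain and branched fatty acids by a beta-oxidation pathway of their own, whose oxidases release hydrogen peroxide. In the liver, PPAR alpha binds fatty acids, pairs with a retinoid X receptor on DNA and raises the transcription of peroxisomal and mitochondrial oxidation genes, most visibly in fasting and, in rodents, under fibrate drugs. The question was whether the 9 genes differed between the diets, and whether they did so as a group.

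The 9 genes did not share 1 direction. In HF livers Ech1 and Creb3l3 rose and Angptl4 fell relative to Control, while the other 6 genes did not pass the test. Of these calls, that of Ech1 held in all 19 omissions of 1 rat and all 13 other settings, that of Creb3l3 in 5 and 8, and that of Angptl4 in 17 and 11. Omitting an HP rat leaves these differences unchanged and moves only their p-values. The 13 settings include Aquantile normalisation between arrays, which leaves log ratios as they are and so could not change a call. In HP livers no member differed from Control by limma's test. Between the diets, Ech1, Vnn1 and Creb3l3 were lower in HP than in HF livers with no overlap, and Angptl4 was higher; the Creb3l3 and Angptl4 calls were lost when the model held a fixed term for slide.

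PPAR alpha and its partner bind repeats of the hexamer AGGTCA spaced by 1 base, so the promoters in RefSeq's table for the build GRCr8 (250 bases before to 50 after the annotated start) were searched for these letters. Of the 9 genes 7 had an entry, and Ech1 and Vnn1 had none. The hexamer AGGTCA, on either strand, lay in 3 of the 7 promoters (Hsd17b4, Cat and Creb3l3) and in 16.2% of all 33469. The repeat AGGTCANAGGTCA with up to 2 mismatches lay in 3 of the 7 (Cat, Crat and Creb3l3) and in 3.77% of all. In Cat and Creb3l3 the hexamer is part of the repeat match. The letters TGACGT, the core of sites for factors of the CREB and ATF kind, lay in 2 of the 7 (Ehhadh and Crat) and in 7.94% of all. Printed 5' to 3' on the gene's strand are the 3 promoters with a repeat match, in capitals (AGGTCAGAGAGCA in Cat, AGGACACCGGTCA in Crat, AGGGGAGAGGTCA in Creb3l3; TGACGT is also in capitals in Crat), and that of Angptl4, which held none of the 3 motifs in this window. They are chr7:9273070-9273369 on the plus strand for Creb3l3, and, on the minus strand, chr3:110329477-110329776 for Cat, chr3:34087050-34087349 for Crat and chr7:15258632-15258931 for Angptl4. The Angptl4 window lies inside the span annotated for that gene, which runs to 15259971.
Creb3l3: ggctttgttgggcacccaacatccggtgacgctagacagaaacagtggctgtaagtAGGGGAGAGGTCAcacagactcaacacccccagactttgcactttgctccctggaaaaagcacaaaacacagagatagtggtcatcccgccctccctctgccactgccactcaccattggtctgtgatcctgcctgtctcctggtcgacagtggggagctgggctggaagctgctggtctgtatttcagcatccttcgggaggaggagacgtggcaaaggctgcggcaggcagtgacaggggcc
Cat: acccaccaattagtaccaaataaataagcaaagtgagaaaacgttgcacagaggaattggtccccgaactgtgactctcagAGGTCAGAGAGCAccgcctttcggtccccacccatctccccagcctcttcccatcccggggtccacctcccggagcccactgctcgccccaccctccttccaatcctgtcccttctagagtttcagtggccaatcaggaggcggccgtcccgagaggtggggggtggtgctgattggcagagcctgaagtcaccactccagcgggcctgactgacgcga
Crat: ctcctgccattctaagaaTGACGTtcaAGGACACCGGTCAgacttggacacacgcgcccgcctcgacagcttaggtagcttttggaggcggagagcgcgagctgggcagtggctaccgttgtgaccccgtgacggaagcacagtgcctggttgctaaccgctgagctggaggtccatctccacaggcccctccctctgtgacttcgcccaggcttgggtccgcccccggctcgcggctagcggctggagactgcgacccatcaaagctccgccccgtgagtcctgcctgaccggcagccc
Angptl4: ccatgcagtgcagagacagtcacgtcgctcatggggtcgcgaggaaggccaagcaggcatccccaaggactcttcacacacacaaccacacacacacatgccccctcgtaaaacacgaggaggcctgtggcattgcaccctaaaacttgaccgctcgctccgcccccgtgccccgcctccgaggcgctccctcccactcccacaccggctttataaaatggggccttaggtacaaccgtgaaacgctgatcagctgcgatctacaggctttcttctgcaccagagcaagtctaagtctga
The repeat matches start at -194 in Creb3l3, -169 in Cat and -223 in Crat, counted from the annotated start. Creb3l3 is among the genes that differed between the diets, Cat and Crat are not, and a match of letters is no evidence of binding.

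All 10 probes were well above background in Cy5 on all 19 arrays, none was saturated, and no log ratio was missing. On the arrays, 54.2% to 67.5% of spots were well above background in Cy5 and 47.2% to 55.1% in Cy3. The number of arrays, 6 or 7 a group, limits the precision, and replicates were separate animals. All 8 hepatocyte markers were above background on all 19 arrays. Control 6 stood apart: the median log ratio of the 7 measured lymphocyte markers was 2.20 there, against -0.69 to -0.28 in HP, -0.59 to -0.39 in HF and -0.64 to -0.51 in the other Control livers. Of 5 adipocyte markers, Adipoq and Lep were above background on 0 of 19 arrays, and the median of the 2 measured ones ran from -0.23 to 0.13 in HP, from -0.16 to 0.24 in HF and from -0.22 to 0.27 in Control livers. Of 5 stellate cell markers Reln and Rgs5 rose in HF against Control (0.52 and 0.60) and Rgs5 in HP (0.45), and Reln was lower in HP than in HF (-0.35, limma adjusted p = 0.0433), with list medians of -0.03 to 0.27 in HP, -0.17 to 0.30 in HF and -0.27 to 0.16 in Control livers. Of the hepatocyte markers Cps1 rose in HP against Control, and in HP against HF 3 were higher and 1 lower. No measured lymphocyte, macrophage, endothelial, bile duct, adipocyte, erythroid or pancreas marker passed limma in the 3 comparisons (7, 5, 5, 3, 2, 3 and 1 were measured; at an unadjusted p under 0.05 at most 1 of a list did), and no muscle marker passed the filter. The part of these markers in the results was not tested. Arrays were spread over 5 slides, numbered here, of which 3 held both HP and Control, 3 both HF and Control, and only slide 1 both HP and HF. Slide 1 held 2 HP, 1 HF and 1 Control array. Slide 2 held 2 HF and 2 Control arrays, and slide 3 held 3 HF and 1 Control. Slide 4 held 2 HP and 2 Control arrays, and slide 5 held 2 HP and 1 Control. A difference within a slide can thus rest on single arrays. Diet and slide are therefore hard to separate between HP and HF, and results are also given with slide as a fixed block.

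Among enzymes of the oxidation spiral, Ech1 rose in HF livers. Ech1 isomerises dienoyl-CoA esters made during the breakdown of unsaturated fatty acids, in mitochondria and peroxisomes. Its probe (A_44_P241885, chr1:83938502-83938561, build rn4) had log2 ratios of -0.80 to -0.15 in HP livers (median -0.44), 0.40 to 0.88 in HF livers (median 0.59) and -0.50 to 0.07 in Control livers (median -0.34). Every HF liver lay above every other liver, while HP and Control livers overlapped. The HF minus Control difference was 0.90 ± 0.11 (log2, SE of the model, n = 6 and 7, 1.86-fold, 95% interval 0.66 to 1.14, limma adjusted p = 0.000214), and HP minus HF was -1.09 ± 0.12 (n = 6 each, adjusted p = 4.57e-05). Against Control, HP differed by -0.19 ± 0.11 (limma adjusted p = 0.469). Within slides 1, 2 and 3, HF exceeded Control by 0.96 (1 liver each), 0.82 (2 each) and 1.16 (3 HF and 1 Control). On slide 1 the mean of 2 HP livers lay 1.44 below the 1 HF liver (-1.44). In bulk tissue, fewer cells that express a gene and less RNA per cell cannot be told apart.

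The other enzymes of the spiral did not pass the test in any comparison. Ehhadh, the L-bifunctional enzyme that hydrates and dehydrogenates acyl-CoA in peroxisomes and a classic PPAR alpha target, had log2 ratios of -0.22 to 0.21 in HP (median 0.06), -0.08 to 0.33 in HF (median 0.18) and -0.37 to 0.45 in Control livers (median 0.11). The 3 groups covered much the same range, and the Control livers spread most. HF minus Control was 0.06 ± 0.12 (95% interval -0.19 to 0.31) and HP minus Control -0.04 ± 0.12 (-0.29 to 0.21), so a rise as large as that of Ech1 in HF livers (0.90) lies outside both intervals. Hsd17b4, the D-bifunctional enzyme for branched and very long chains and bile acid precursors, had log2 ratios of -0.34 to -0.02 in HP (median -0.15), -0.11 to 0.07 in HF (median -0.06) and -0.26 to 0.05 in Control livers (median -0.12). HF minus Control was 0.06 ± 0.06 (95% interval -0.07 to 0.18) and HP minus HF -0.11 ± 0.06 (limma adjusted p = 0.342).

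The genes of peroxisome division, peroxide removal and carnitine transfer did not pass either. Pex11a, a membrane protein that elongates peroxisomes before they divide, has 2 probes on chromosome 1, starting at 135514136 and 135515420 in rn4. The brighter one, A_42_P561754, had log2 ratios of -0.33 to 0.08 in HP (median -0.15), -0.79 to 0.57 in HF (median 0.16) and -0.39 to 0.36 in Control livers (median 0.05). The HF livers held both the highest and the lowest value, in HF 1 and HF 4, and the dimmer probe A_44_P510470 placed the same 2 livers at its ends (0.36 and -0.28). The probes gave HF minus Control differences of 0.01 ± 0.17 and 0.02 ± 0.09, and HP minus Control differences of -0.14 ± 0.17 and -0.04 ± 0.09. Cat (catalase, which splits hydrogen peroxide) had log2 ratios of -0.29 to 0.15 in HP (median -0.10), -0.20 to 0.10 in HF (median -0.13) and -0.21 to 0.28 in Control livers (median -0.04). Its differences were -0.13 ± 0.08 for HP minus Control and -0.13 ± 0.08 for HF minus Control, with 95% intervals of -0.30 to 0.03 and -0.30 to 0.04. Crat (carnitine acetyltransferase, which moves acetyl and short acyl groups onto carnitine) had log2 ratios of -0.31 to 0.36 in HP (median -0.10), -0.38 to 0.47 in HF (median 0.03) and -0.51 to 0.19 in Control livers (median -0.27). It was 0.29 ± 0.14 higher in HF than in Control livers by the model, which did not pass (limma adjusted p = 0.345), with overlapping groups.

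**Figure D1:**
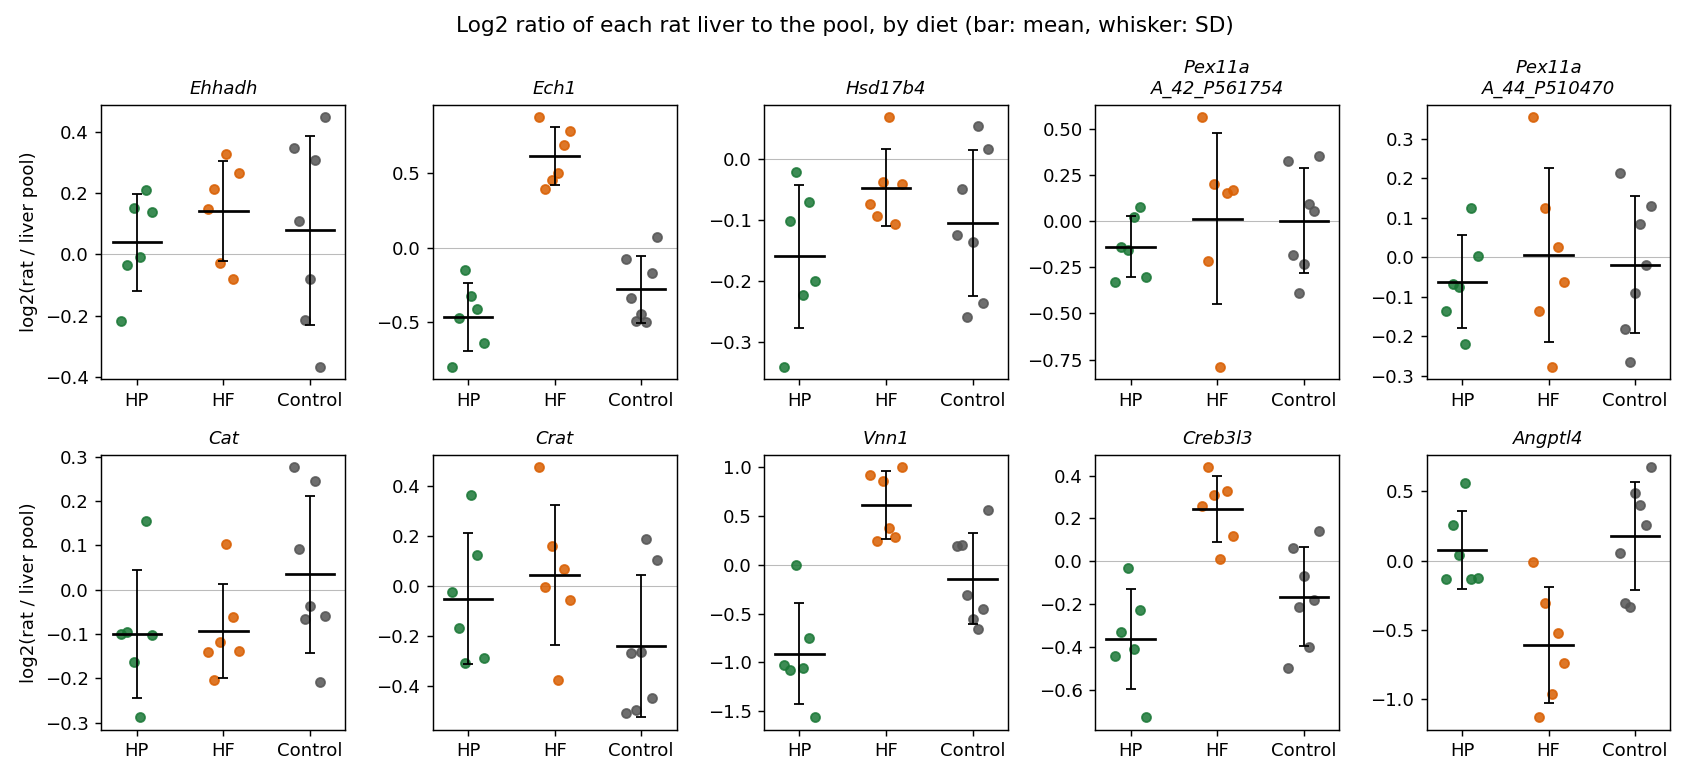
Log2 ratio of each rat liver to the liver pool (y axis) by diet (x axis: HP, HF, Control) for the 10 probes; points are rats, bars the mean and whiskers the SD. Each panel has its own y scale. All 6 HF points of Ech1 lie above all HP and Control points, and most HF points of Angptl4 lie below all Control points.

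Vnn1 and Creb3l3 separated HP from HF livers. Vnn1 encodes a pantetheinase on the cell surface, an enzyme that releases cysteamine and pantothenate, and is a PPAR alpha target in rodent liver. Its probe (A_42_P811256, chr1:22087762-22087821 in rn4) had log2 ratios of -1.56 to -0.00065 in HP (median -1.04), 0.24 to 1.00 in HF (median 0.62) and -0.66 to 0.57 in Control livers (median -0.31). HP and HF livers did not overlap, and Control livers overlapped both. HP minus HF was -1.53 ± 0.24 (n = 6 each, HP at 0.347 of the HF level, 95% interval -2.03 to -1.03, limma adjusted p = 0.00048). The steps from Control were of like size in opposite directions, -0.77 ± 0.23 in HP with 5 of 6 livers below all Controls, and 0.76 ± 0.23 in HF with 3 of 6 above all Controls, and neither passed over all probes (limma adjusted p = 0.134 and 0.0801). The HF step passed without Control 7 (adjusted p = 0.0342) or without HP 3 (adjusted p = 0.0385) by limma. Within slides the HP minus Control difference was -1.24, -0.87 and -0.33 (slides 1, 4 and 5), and the HF minus Control difference 0.73, 0.72 and 0.87 (slides 1, 2 and 3).

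Creb3l3 encodes a hepatocyte transcription factor held in the endoplasmic reticulum, a fasting-induced PPAR alpha target that itself regulates lipid genes. Its probe (A_43_P17990, chr7:10110075-10110134 in rn4) had log2 ratios of -0.73 to -0.03 in HP (median -0.37), 0.01 to 0.44 in HF (median 0.28) and -0.50 to 0.14 in Control livers (median -0.18). HP livers lay wholly below HF livers, and 4 of 6 HF livers lay above all Controls. HP minus HF was -0.61 ± 0.12 (n = 6 each, limma adjusted p = 0.00286), a call that was lost in the model with a fixed term for slide (-0.58, limma adjusted p = 0.0904). HF minus Control was 0.41 ± 0.11 (1.33-fold, limma adjusted p = 0.0465), close to the threshold of 0.05: it passed in 5 of 19 omissions of 1 rat, with adjusted p between 0.0236 and 0.117, and it was lost once slide entered as a fixed block (0.44, limma adjusted p = 0.102). HP minus Control was -0.20 ± 0.11 and did not pass (limma adjusted p = 0.437).

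Angptl4 went the other way in HF livers. It encodes a secreted inhibitor of lipoprotein lipase that PPAR receptors induce when fatty acids rise. Its probe (A_44_P391057, chr7:16262218-16262277 in rn4) had log2 ratios of -0.13 to 0.56 in HP (median -0.04), -1.13 to -0.01 in HF (median -0.63) and -0.33 to 0.67 in Control livers (median 0.26). Of the HF livers 4 of 6 lay below all Controls, and HP and Control livers covered a similar range. HF minus Control was -0.79 ± 0.19 (n = 6 and 7, HF at 0.579 of the Control level, 95% interval -1.18 to -0.39, limma adjusted p = 0.0222), and HP minus HF was 0.69 ± 0.20 (n = 6 each, limma adjusted p = 0.0383). The HF minus Control difference was -0.07, -0.81 and -0.40 on slides 1, 2 and 3. Neither passed once slide entered as a fixed block (-0.55 and 0.27, limma adjusted p = 0.256 and 0.683), and the HF minus Control call was also lost without HF 2 or HF 4 (adjusted p = 0.0656 and 0.0628). The HP against HF call passed in 12 of 19 omissions of 1 rat and was lost without HP 2, HP 3, HP 4, HF 2, HF 4, HF 5 or HF 6 (limma adjusted p 0.0131 to 0.0925 over the 19). Every loss came from omitting an HP or HF rat. Omitting a Control rat leaves this difference unchanged and moves only its p-value.

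**Figure D2:**
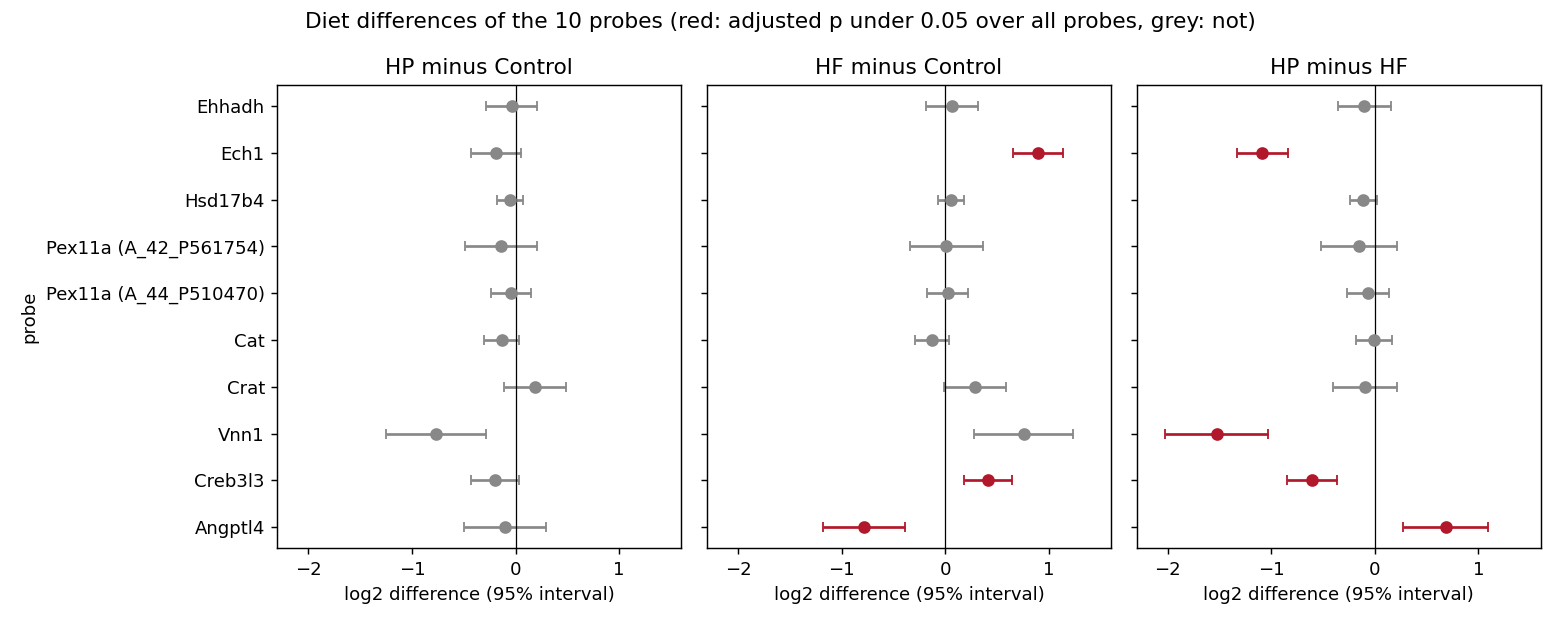
Log2 difference (x axis) of each of the 10 probes (y axis) in 3 comparisons, with 95% intervals of the limma model; red marks an adjusted p under 0.05 over all probes. Ech1 rises and Angptl4 falls in HF against Control, and no probe is red in HP against Control.

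Counted over the 10 probes, 0 passed between HP and Control, where 0.447% of the 25292 probes tested passed (113 probes; 14.4% had an unadjusted p under 0.05, Vnn1 being the only member among them). Between HF and Control 3 passed, against 3.46% of all probes, 2 higher (1.72% of all) and 1 lower (1.73% of all). Between HP and HF 4 passed, against 7.08% of all, 3 lower in HP (3.27% of all) and 1 higher (3.81% of all). Groups did not overlap for 0 probes between HP and Control (0.785% of all probes), for 1 between HF and Control, higher in HF (1.9% of all, 0.765% in that direction), and for 3 between HP and HF, all lower in HP (5.01% of all, 2.16% in that direction). By the F test over the 3 diets 4 of 10 passed (Ech1, Vnn1, Creb3l3 and Angptl4), against 6.58% of all. When slide entered as a fixed block, 1 member passed between HF and Control (1.87% of all probes), 2 between HP and HF (1.44% of all) and 1 by the F test (525 of 25292 probes). Without HF 2, 1 member passed between HF and Control (2.57% of all probes). The comparisons share livers, so these counts are not separate evidence. The members were chosen with earlier results of these data known, so counts above the shares of all probes are a description and no test. Over 1 probe per gene the median difference was -0.13 for HP minus Control (1 gene above 0 and 8 below, all probes -0.0096), 0.06 for HF minus Control (7 above and 2 below, all probes -0.011) and -0.11 for HP minus HF (1 above and 8 below, all probes -0.0014). Of all probes 46.4%, 46.0% and 49.5% lay above 0 in these comparisons. By rat, HP livers had 1 to 5 of the 9 genes above the Control median, HF livers 6 or 7, and Control livers 0 to 8. Ech1, Vnn1 and Creb3l3 lay above their Control medians in every HF liver and so enter each HF count. The like count over all probes was not made.

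**Figure D3:**
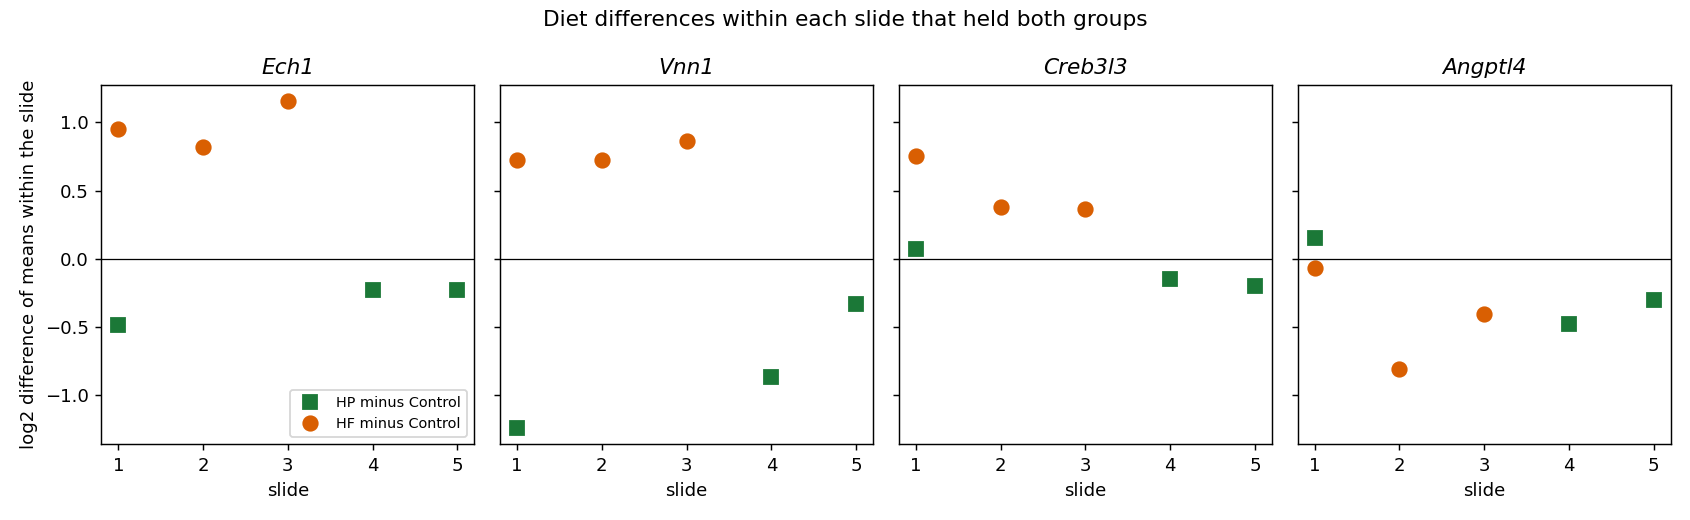
Log2 difference of group means within each slide that held both groups (x axis: slide number; y axis: log2 difference), HP minus Control in green and HF minus Control in orange, for 4 genes. HF minus Control is above 0 on all 3 slides for Ech1, Vnn1 and Creb3l3, and below 0 for Angptl4. A group had 1 to 3 arrays on a slide.

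Whether the genes varied together from rat to rat was asked after removing each diet's mean, over 19 rats and 36 pairs of genes. Of the 36 correlations 30 were positive, with a median of 0.20 and a range from -0.36 (Cat with Creb3l3) to 0.76 (Ehhadh with Hsd17b4). By Pearson's r 6 pairs passed after Benjamini-Hochberg adjustment over 36 pairs, and by Spearman's rho only Ehhadh with Hsd17b4. That pair had r = 0.76 (permutation p = 0.00066, adjusted p = 0.0238) and rho = 0.74 (permutation p = 0.0009, adjusted p = 0.0324), with r = 0.70 without the 2 rats farthest from the median of Ehhadh. Ech1 with Vnn1 had r = 0.71 (permutation p = 0.00293, adjusted p = 0.0352) and rho = 0.68 (permutation p = 0.00442, adjusted p = 0.053), with r = 0.69 without the 2 farthest rats.

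Pex11a, Crat and Angptl4 correlated among themselves. Crat with Angptl4 had r = 0.67 (permutation p = 0.0042, adjusted p = 0.0378, rho = 0.57, permutation p = 0.0197, adjusted p = 0.142), Pex11a with Angptl4 r = 0.66 (permutation p = 0.00679, adjusted p = 0.0407, rho = 0.61, permutation p = 0.015, adjusted p = 0.135) and Pex11a with Crat r = 0.64 (permutation p = 0.00644, adjusted p = 0.0407, rho = 0.52, permutation p = 0.036, adjusted p = 0.216). Without the 2 farthest rats r was 0.59, 0.59 and 0.43, so the last rests in part on those rats. Ech1 with Pex11a had r = 0.64 (permutation p = 0.00247, adjusted p = 0.0352), rho = 0.68 (permutation p = 0.00322, adjusted p = 0.053) and r = 0.60 without the 2 farthest. With slide means removed too, 3 of the 6 pairs passed: Ehhadh with Hsd17b4 (r = 0.76), Ech1 with Vnn1 (0.76) and Ech1 with Pex11a (0.60). The rats were still permuted within diets but across slides, so the p-values of this setting are only approximate. Without Control 6, Pex11a with Angptl4 no longer passed (r = 0.66, permutation adjusted p = 0.0579).

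**Figure D4:**
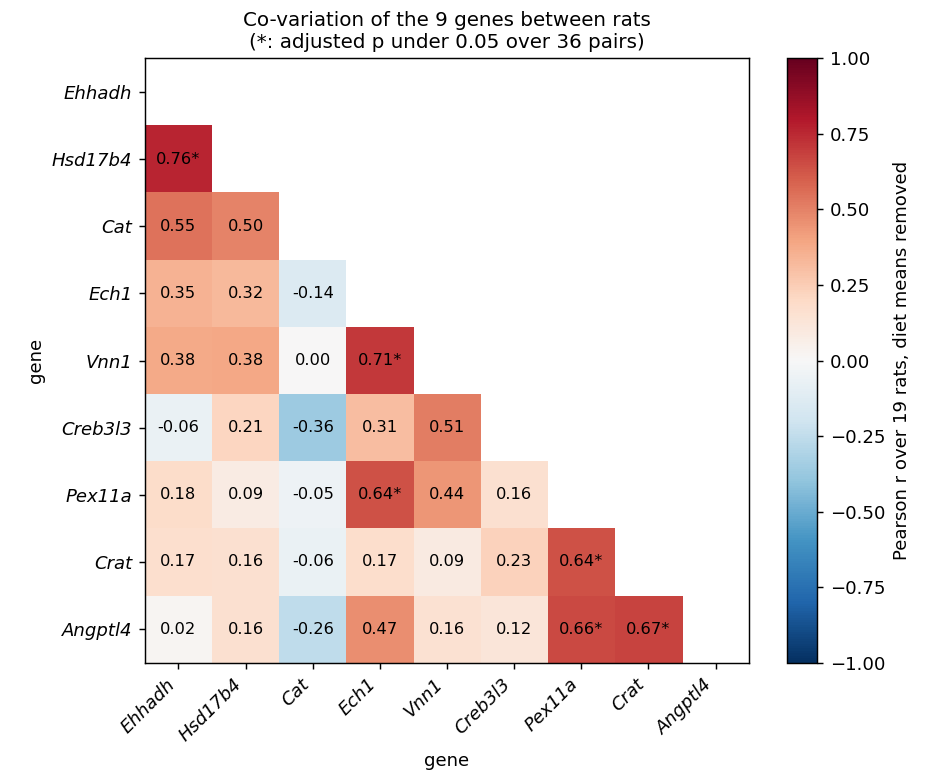
Pearson r between each pair of the 9 genes over 19 rats after diet means were removed (both axes: genes; colour: r); stars mark adjusted p under 0.05 over 36 pairs. The highest value is 0.76 for Ehhadh with Hsd17b4, and Cat has values near or below 0 with all genes but those 2.

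Over the 19 rats with diet means removed, Ech1 and Angptl4 had r = 0.47, which did not pass (permutation p = 0.0569, adjusted p = 0.194, rho = 0.48, permutation p = 0.0519, adjusted p = 0.234, r = 0.35 without the 2 farthest rats). Their HF minus Control differences ran in opposite directions.

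**Figure D5:**
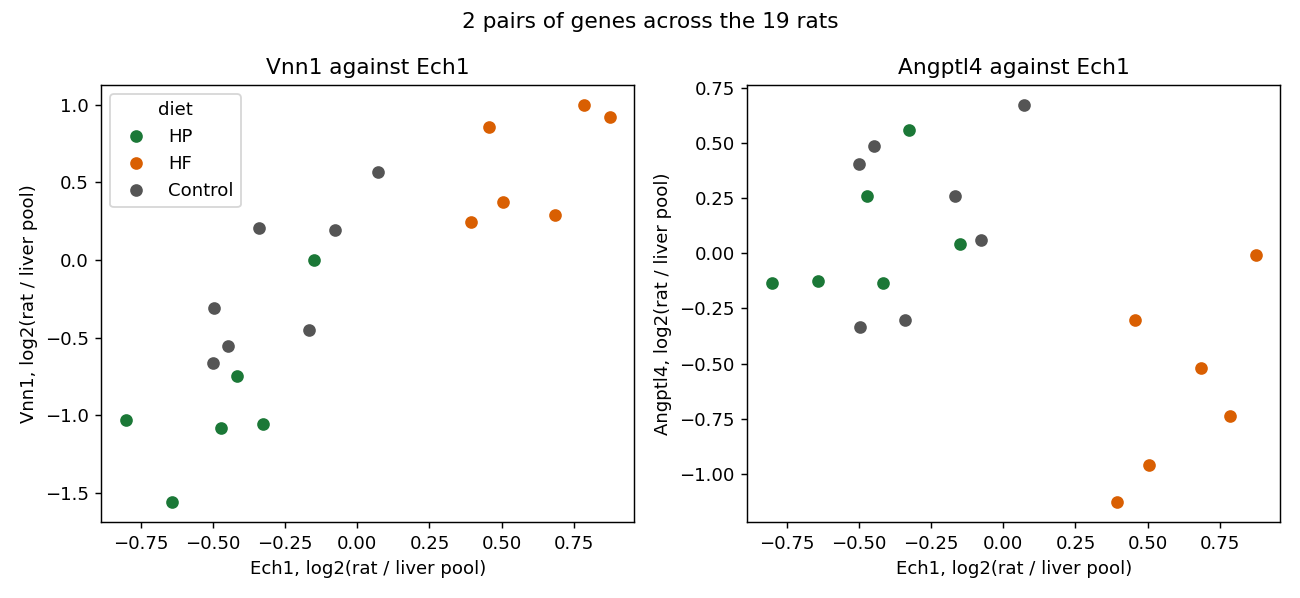
Log2 ratios of the 19 rats, Vnn1 against Ech1 and Angptl4 against Ech1 (both axes: log2 of rat over pool), coloured by diet. HF livers sit at the right in both panels, high for Vnn1 and low for Angptl4.

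The genes whose log ratios were most like those of the 4 members that passed the F test, over all 19 rats with diet differences included, are given as a description. Ech1 was closest to Decr1 (r = 0.94), Slc4a4 (0.89) and Gde1 (0.88), Vnn1 to Decr1 (0.89), Aldh1a1 (0.87) and Ech1 (0.86), and Creb3l3 to Decr1 (0.82), Vnn1 (0.81) and Ddx6 (0.80). Angptl4 was closest to Ap1m1 (0.88), Lin37 (0.84) and Nup62 (0.82). With diet means removed, Decr1 had r = 0.72 with Ech1, 0.70 with Vnn1 and 0.43 with Creb3l3, and Ap1m1 had r = 0.79 with Angptl4.

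Among other known PPAR alpha targets of the liver, genes of mitochondrial fatty acid oxidation rose in HF livers. Of 42 listed, 36 were measured, and in HF against Control 7 rose and 1 fell (median 0.19). The shares of all probes that passed were 3.46% in HF against Control, 0.447% in HP against Control and 7.08% in HP against HF. The risers work in mitochondrial fatty acid oxidation: Cpt1a, which commits fatty acids to mitochondria (0.82 ± 0.19, limma adjusted p = 0.0161), the carnitine carrier Slc25a20 (0.32), the acyl-CoA dehydrogenases Acadm (0.36), Acadl (0.34) and Acadvl (0.25), and both subunits of the trifunctional protein, Hadha (0.40 ± 0.06, limma adjusted p = 0.000651) and Hadhb (0.50). Gpd1, which makes glycerol 3-phosphate from a glycolytic intermediate, fell by 0.60. Each gene was read by its brightest probe, and Acadvl and Hadha have other probes above background that were not read. In HP against Control 0 of 36 passed limma (2 had an unadjusted p under 0.05; median -0.05), and Fgf21, a fasting hormone, had the value -0.56 ± 0.14 (limma adjusted p = 0.0806), near its -0.46 ± 0.14 in HF (adjusted p = 0.0808). In HP against HF 1 was higher, Gpd1, and 11 were lower (median -0.22), among them Acadm (-0.48), Cpt1a (-1.07), Acadl (-0.37), Hadha (-0.28), Slc25a20 (-0.32), Acadvl (-0.21) and Apoa5 (-0.43). With slide as a fixed block the HF against Control counts were again 7 and 1 (1.87% of all probes), and those of HP against HF were 0 and 3 (1.44% of all).

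Several PPAR alpha targets did not pass the test against Control. Acaa1a, a peroxisomal thiolase, differed from Control by 0.22 ± 0.08 in HF and 0.22 ± 0.08 in HP (limma adjusted p = 0.19 and 0.243), and the acyl-CoA thioesterase Acot1 by 0.05 and -0.03. Cyp4a1, a fatty acid omega-hydroxylase, differed by 0.24 ± 0.19 in HF and 0.30 ± 0.19 in HP. The other Cyp4a genes measured, named after their values were seen, had larger values in HF against Control that did not pass: Cyp4a2 1.31 ± 0.41 (95% interval 0.45 to 2.18, limma adjusted p = 0.0943), Cyp4a8 1.30 ± 0.38 (limma adjusted p = 0.0664) and Cyp4a3 0.57 ± 0.20 (limma adjusted p = 0.152). In HP against Control they had -0.06, -0.10 and 0.10, and in HP against HF Cyp4a8 was lower (-1.40 ± 0.39, limma adjusted p = 0.0355), while Cyp4a2 had -1.37 ± 0.43 (limma adjusted p = 0.0593). Other genes, also named after their values were seen, had lower values in HF than in Control livers that did not pass. Among them were G0s2 (-0.85 ± 0.33, limma adjusted p = 0.202) and, of the peroxisomal list below, Acaa1b (-0.59 ± 0.18, limma adjusted p = 0.0917). In each of these 2 lists 26 of 36 genes lay above 0 in HF against Control. Pdk4, a kinase that curbs glucose oxidation, differed from Control by -0.07 in HF and 0.10 in HP, and Fabp1, the liver fatty acid binding protein, by -0.16 and -0.02, none past the test. Plin2 had no probe under that name.

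Of 41 other peroxisomal enzymes and transporters 36 were measured. The shares of all probes that passed were 0.447% in HP against Control, 3.46% in HF against Control and 7.08% in HP against HF. In HP against Control 2 rose, the purine-degrading urate oxidase Uox (0.60 ± 0.10, limma adjusted p = 0.0116) and Agxt, which detoxifies glyoxylate (0.59 ± 0.11, limma adjusted p = 0.0242), and none fell (median 0.06). In HF against Control 1 rose, Phyh, which starts the alpha-oxidation of phytanic acid (0.54 ± 0.13, limma adjusted p = 0.0236), with a list median of 0.09. Phyh had a value of like size in HP against Control (0.57 ± 0.13), which did not pass (limma adjusted p = 0.0602), and HP minus HF was 0.03 ± 0.14. In HP against HF Agxt (0.53), Gnpat of ether lipid synthesis (0.31) and Uox (0.41) were higher, while Acox2, the branched-chain oxidase of bile acid synthesis (-0.68), and the very long chain acyl-CoA synthetase Slc27a2 (-0.40) were lower (median 0.04). Each gene was read by its brightest probe, and Phyh, Agxt and Slc27a2 have another probe above background that was not read. Once slide entered as a fixed block, 0 of 36 passed in HP against Control (0.0949% of all probes) and 0 in HP against HF (1.44% of all). Without Control 6 there were 5 higher and 2 lower in HP against HF (9.96% of all), and 1 lower in HF against Control (3.95% of all). Of the 13 measured peroxins, proteins that build peroxisomes, 0 passed limma in any of the 3 comparisons (3, 1 and 3 had an unadjusted p under 0.05; medians 0.02, -0.02 and -0.01 for HP against Control, HF against Control and HP against HF). Without Control 6, 1 was higher and 1 lower in HP against HF, where 9.96% of all probes passed.

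Of the receptor and its cofactors 15 of 16 genes were measured. Each was read by its brightest probe, and Ncor1 has other probes above background that were not read. Ppara itself differed by -0.05 ± 0.11 in HP and by 0.19 ± 0.11 in HF against Control (limma adjusted p = 0.86 and 0.45), and its partner Rxra by 0.01 and 0.15 (limma adjusted p = 0.966 and 0.324). The corepressor Ncor1 was the only one to pass, lower in HP than in Control livers (-0.49 ± 0.10, limma adjusted p = 0.0422) and than in HF livers (-0.47 ± 0.11, limma adjusted p = 0.0111); the call against Control was lost without Control 6 and both with slide as a fixed block. Ppargc1a, a coactivator of fasting, was above background on 2 of 19 arrays and was not tested. Of all probes 0.447% passed in HP against Control and 7.08% in HP against HF.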

How the data were processed

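Liver RNA of 19 rats was measured on 2-colour arrays. The deposited scanner output gives each spot's signal and its local background as intensity; per the file headers and the submitters' processing notes the software was Agilent Feature Extraction, version 10.5.1.1. The authors also deposited a matrix of log2 values for 22764 features, with column medians of 8.20; its steps are not given in the sources used here, and after centring it followed the log ratios computed here (r across features 0.911 to 0.976). Per the labels, Cy5 was the rat and Cy3 the pool, with no dye swap, so dye bias is not balanced.

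Spots whose local background exceeded signal by more than 50 were dropped (34 spots on 5 arrays, a choice taken from earlier results), normexp with an offset of 50 and loess within arrays gave log2 ratios, outlier spots were left out and spots of a probe averaged. Probes whose Cy5 signal stood well above background on 6 or more of the 19 arrays (25292 of 41012) were tested with limma 3.58.1 in R 4.3.3 in 1 model over the 3 diets (16 residual and 3.32 prior degrees of freedom), two-sided, with p-values adjusted by Benjamini-Hochberg over all 25292. Probes were named by accession, then symbol or synonym; 18581 of 41012 have no name. Replicate numbers do not pair the rats (mean r -0.0088 over 18 like-numbered pairs, 0.0011 over 102 others). Pairs of genes were tested by permuting rats within diets 100000 times, 1 probe per gene (highest signal), with Python 3.11.15 and numpy 2.4.6. Both procedures were tested on simulated data.

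Members and gene lists were chosen with earlier results of these data known. Named list genes are those past the test, at most 8 by smallest p in a list and comparison, plus Ppara, Rxra, Ppargc1a, Acaa1a, Cyp4a1, Acot1, Fgf21, Pdk4, Cpt1a, Plin2 and Fabp1. A few genes are left unnamed in the text but remain in every count and median. Each listed gene and marker was read by its brightest probe past the filter. The alternatives changed the background step, source of values, channel, normalisation, filter, probes per gene, slide, array weights, replicate block and rats. Other markers (macrophage, endothelial, stellate, cholangiocyte, erythroid, pancreas and muscle) were also listed. Probe positions refer to rn4 and promoters to GRCr8.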

Additional observations from a re-analysis of the deposited data

How the results depend on the processing

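The calls of Ech1 (HF against Control and against HP) and of Vnn1 (HP against HF) held in all 19 omissions of 1 rat and in all 13 other settings. Omitting a rat of the third diet leaves a difference between the other 2 unchanged and moves only its p-value. Aquantile normalisation, among the 13 settings, leaves log ratios as they are and so could not change a call. Creb3l3 (HP against HF) was lost only once slide entered as a fixed block (-0.58, adjusted p = 0.0904). The HF against Control rise of Creb3l3 was lost with processed signals (0.42, adjusted p = 0.0555), the deposited matrix (0.45, 0.0524), Cy5 alone (0.31, 0.218), no filter (0.41, 0.063) and slide as a fixed block (0.44, 0.102). Angptl4 in HP against HF held in 12 of 19 omissions and 8 of 13 settings. Counts of members called changed from 3 to 1 (HF against Control, 1.87% of all probes), 4 to 2 (HP against HF, 1.44% of all) and 4 to 1 (F test, 525 of all probes) with slide as a fixed block, and from 6 to 3 pairs with diet and slide means removed. Over omissions of 1 rat they ran from 1 to 4 (HF against Control, 1 without HF 2), 3 to 4 (HP against HF) and 3 to 4 (F test), and stayed 0 for HP against Control. Over the same omissions 2.57% to 3.95% of all probes passed in HF against Control and 5.27% to 9.96% in HP against HF. In HP against Control 0.103% to 1.82% did. With the replicate number as a block 0, 3, 3 and 3 members passed (HP against Control, HF against Control, HP against HF, F test). Of all probes 0.826%, 2.74% and 6.43% passed in the 3 comparisons. For the F test the shares of all probes over omissions and with this block are not given here, so its member counts stand without them. With the replicate number as a block, Vnn1 passed in HF against Control (0.88, limma adjusted p = 0.0475), and Angptl4 did not in HF against Control (-0.70, 0.0851) or HP against HF (0.69, 0.0614), though the numbers do not pair the rats. Only Control 7 bears the number 7, so this block takes it out of the differences from Control. The Vnn1 difference in HF against Control is therefore the same as without Control 7 (0.88). Vnn1 in HF also passed with normexp fitted on every spot (0.80, 0.0426). Apart from the loss of Control 7 in the replicate block, the cause of these changes was not tested.

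Signs turned only for values near 0 that never passed: Ehhadh in HP against Control (0.032 deposited matrix, 0.039 Cy5 alone, 0.023 replicate block, -0.113 to 0.023 over omissions) and in HF (-0.011 to 0.125 over omissions), Hsd17b4 in HP (0.022 deposited matrix), Pex11a in HF (-0.012 and -0.023 processed signals, -0.101 to 0.171 and -0.047 to 0.080 over omissions) and in HP against HF (-0.124 to 0.0031 over omissions, dimmer probe), and Cat in HP against HF (0.010 normexp on every spot, 0.013 processed signals, 0.067 deposited matrix, 0.026 array weights, -0.057 to 0.033 over omissions). With slide as a fixed block, a setting for lists added after seeing the data, the median of other peroxisomal genes turned to -0.042 (HP against HF) and that of receptor and cofactors to 0.0070 (HP against Control).

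Over all probes, HP against Control called 113, but 61 with normexp on every spot (32 higher, 29 lower), 63 with processed signals (51 and 12), 90 with the deposited matrix (81 and 9), 53 with Cy5 alone, 24 with slide as a fixed block, 282 with array weights, 209 with the replicate block and 26 to 460 over omissions (460 without Control 7). HF against Control called 874 and 474 with slide as a fixed block; HP against HF 1791, 365 with slide as a fixed block and 3124 with array weights. Aquantile leaves log ratios as they are, so quantile normalisation was added after seeing the data.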
